A study of Homo sapiens with 12 samples.

Results

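The comparison set untreated HepG2 cells against untreated Ls174 cells, 3 libraries against 3, which are 6 of the 12 libraries of the series. It was defined by the sample labels alone, as the control libraries of each line, without any measured value. HepG2 is a line from a human liver carcinoma that keeps much of the hepatocyte program, and Ls174 is a line from a human colon adenocarcinoma known for mucus secretion. Both lines were labelled wild type and were cultured in DMEM with serum, penicillin and streptomycin. Apart from these antibiotics, the study's methods name no drug for the control cells, and they name no transgene in either line. They had been left untreated for 24 h when RNA was taken, and the study's methods do not state whether serum was present then. The other 6 libraries of the series came from the same lines given HME, an extract of the red alga Hypnea musciformis, and they enter here only where they are named. Each line is a single tumour-derived line, so that every value below separates these 2 lines, and what belongs to the tissue, to the tumour or to the line cannot be told apart.

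The liver makes most of the proteins of blood plasma: carriers such as albumin, clotting factors, complement, and the apolipoproteins that wrap fat for transport. Hepatocytes keep this program on through a network of transcription factors, among them HNF4A, the FOXA factors and CEBPA. The colon lining is instead held by CDX1 and CDX2, is renewed from stem cells at the crypt base under Wnt signalling, and is covered by mucus from goblet cells.

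RNA was read from the 3′ ends of polyadenylated transcripts, so a gene's count does not grow with transcript length, and levels are given as CPM, counts per 1000000 counts of the library, after TMM scaling, which adjusts the library totals. The HepG2 libraries held 3656662, 1874122 and 2442355 counts and the Ls174 libraries 1977996, 2869525 and 3464540. Of 57736 genes in the files, 24571 had a count in at least 1 of the 6 libraries and 11907 passed the filter on low counts and were tested. A gene read in a single line can pass that filter through that line alone. A gene was called when the Benjamini-Hochberg adjusted p of edgeR's quasi-likelihood F test was under 0.05 and the log2 fold change lay beyond 0.58 either way, and positive fold changes are higher in HepG2. Where all 3 libraries of a line held 0 counts, the fold is given as a lower bound against 3 counts over the line, 0.334 CPM in Ls174 and 0.399 CPM in HepG2. Where a line held 1 to 3 counts, it is the ratio of the counts with its exact 95% interval, and bounds and intervals cover counting error only.

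HepG2 control 2 and Ls174 control 1 lay apart from the other libraries of their line. Across genes, HepG2 control 2 correlated with the other HepG2 libraries at Pearson r = 0.859 and 0.862, against 0.956 between those 2 libraries, and Ls174 control 1 at 0.869 and 0.876, against 0.977. The counts of ACTB, cytoskeletal actin, showed it: 10009, 37653 and 3696 CPM in HepG2 and 13163, 4663 and 2729 CPM in Ls174. Counts of called genes are therefore given for all 6 libraries and again without these 2.

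Ls174 control 3 held a low level of transcripts that were abundant in HepG2. Among the genes called higher in HepG2 with a HepG2 mean above 200 CPM, 39 had 0 counts in both Ls174 control 1 and Ls174 control 2, and all 39 had a count in Ls174 control 3. Their level there was 0.397% of the HepG2 mean in the median, between 0.0604% and 2.94%. ALB, which codes for albumin, had 0, 0 and 46.3 CPM in the 3 Ls174 libraries, and AFP, alpha-fetoprotein, had 0, 0 and 33.9 CPM. By the same rule, a single gene was at 0 in Ls174 control 1 and 3 only, and none in Ls174 control 2 and 3 only. In the other direction 6 genes of Ls174 were at 0 in HepG2 control 1 and 2, and 5 of them had a count in HepG2 control 3, at most 0.931% of the Ls174 mean. The source of these counts was not tested, and each list is also given without Ls174 control 3. The fitted folds of these genes rest on that library, so that where leaving out 1 library moved a called fold by over 1.5 times, the fold is given again without it. Without Ls174 control 3 such a gene has a lower bound against 3 counts over the other Ls174 libraries, 0.581 CPM.

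**Figure D1:**
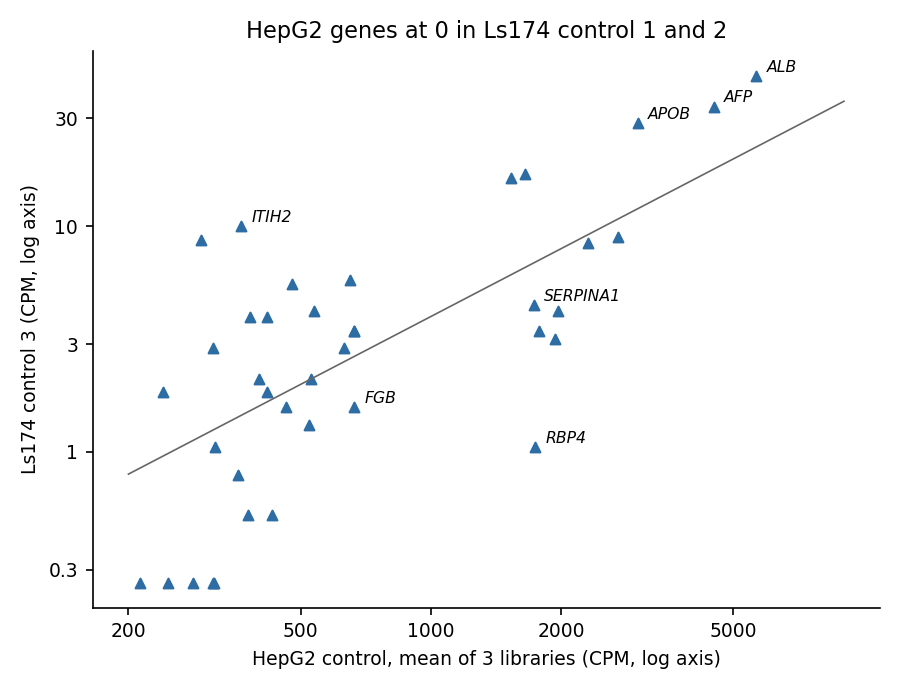
Level in Ls174 control 3 (CPM, log axis) against the HepG2 mean over 3 libraries (CPM, log axis) for the 39 genes called higher in HepG2 that had 0 counts in Ls174 control 1 and 2. Each triangle is a gene, and the line marks the median of 0.397% of the HepG2 mean; ALB, AFP and APOB lie at the top right with 46.3, 33.9 and 28.6 CPM.

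The labels of both lines were checked against marker genes. The 15 hepatocyte markers summed to 29530, 40105 and 33465 CPM in the HepG2 libraries and to 30.1, 72.5 and 208.7 CPM in the Ls174 libraries, where 11, 12 and 1 of them were at 0. The 15 markers of intestinal epithelium and goblet cells summed to 213, 76.1 and 202 CPM in HepG2 and to 532, 605 and 617 CPM in Ls174. The HepG2 sums came largely from VIL1, the microvillus protein villin, at 191, 57.8 and 173 CPM. Not every intestinal marker was read in Ls174: ATOH1, the master factor of secretory cells, had 0 counts in all 6 libraries, KRT20 had 0 in Ls174, and MUC2, the main goblet cell mucin, had 0, 2.21 and 1.31 CPM there. Of the cell types that neither line should hold, fibroblast markers summed to 98.4 to 192 CPM in HepG2, of which ACTA2, smooth muscle actin, gave 94.3, 187 and 141 CPM, and to 5.04 to 13.1 CPM in Ls174. Blood cell markers summed to at most 34.0 CPM and endothelial markers to at most 18.6 CPM in any library. In bulk RNA, fewer cells that read a gene and less of its RNA per cell cannot be told apart.

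The lines lay apart from each other. Over the 500 most variable genes, the mean distance in log2 CPM between a HepG2 and a Ls174 library was 145.7 ± 6.95 (SD, 9 pairs), against 20.8 among the HepG2 and 24.5 among the Ls174 libraries, a ratio of 6.44. Those 500 genes include many that differ between the lines, and over all tested genes the ratio was 2.19. No other division of the 6 libraries gave a larger ratio, and its one-sided exact permutation p of 0.1 is the smallest that 10 divisions can give. Of the 11907 genes tested, 2798 (23.5%) were called, 1687 (14.2%) higher in HepG2 and 1111 (9.33%) higher in Ls174. Without the 2 libraries that lay apart 5615 of 12790 genes tested were called, 3078 higher in HepG2 and 2537 higher in Ls174. That fit called more genes in general. List counts without these 2 libraries therefore stand against its totals, not against the shares of the 6-library fit. The 3 levels of a line lay wholly above or below those of the other line in 5071 genes (42.6%). A log2 fold change beyond 2 was seen for 1256 of the genes higher in HepG2 and 728 of those higher in Ls174, while the median over all tested genes was 0.04. In 233 of the genes higher in HepG2 all 3 Ls174 libraries had 0 counts, and in 167 of those higher in Ls174 all 3 HepG2 libraries did.

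**Figure D2:**
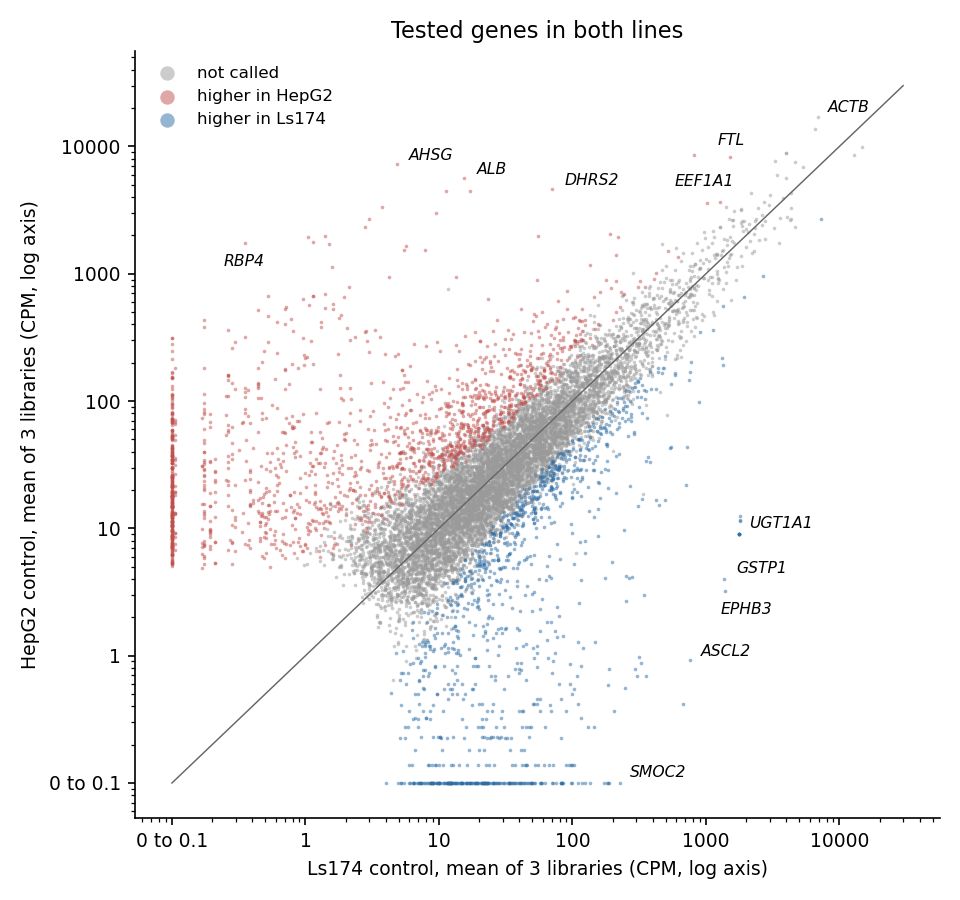
Mean level of each of the 11907 tested genes in HepG2 (vertical) and Ls174 (horizontal), in CPM on log axes, with means below 0.1 drawn at the edge and the diagonal marking equal levels. Red points are the 1687 genes called higher in HepG2, blue the 1111 called higher in Ls174 and grey the rest; AHSG, ALB and RBP4 lie at the upper left, EPHB3, ASCL2, GSTP1 and SMOC2 at the lower right, and EEF1A1 and ACTB near the diagonal at high level.

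Genes for plasma carriers were read at high levels in HepG2 and at 0 or low levels in Ls174. All 23 members of the list of 27 that passed the filter were called higher in HepG2, none higher in Ls174, and in all 23 the lines did not overlap, against 14.2% higher in HepG2 and 42.6% without overlap among all genes tested. The median log2 fold change was 8.06, or 7.96 with genes at 0 in Ls174 set to their bound. Medians below are given a second time in this way only where the bound changes them. Without Ls174 control 3 the count was 22, and without HepG2 control 2 and Ls174 control 1 it was 23. AHSG, fetuin-A, a carrier that keeps calcium phosphate in solution, was at 4200.3, 12417 and 5219.5 CPM in HepG2 and 0.502, 0 and 13.9 CPM in Ls174 (log2 fold change 10.46, SE 1.55, adjusted p = 0.0013). ALB was at 7924, 2350.3 and 6652 CPM in HepG2, lowest in the second library, and at 0 in the first and second Ls174 library (log2 fold change 8.47, SE 1.87, adjusted p = 0.01). Without Ls174 control 3, ALB was at least 9715-fold higher in HepG2 and AHSG, on 1 count left in Ls174, was higher too (31681-fold, 95% counting interval 5686 to 1251350.0). AHSG had a log2 fold change of 9.82 without HepG2 control 2. The counts of ALB lay mainly in chr4:74286809-74287326 (GRCh37, plus strand), in the last coding exon and 3′ UTR.

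The iron carrier TF was at 2659, 3343 and 2125 CPM in HepG2 and 0, 0 and 8.94 CPM in Ls174 (log2 fold change 9.67, SE 1.38, adjusted p = 0.001). RBP4, which carries retinol, had 1045, 2534 and 1643 CPM against 0, 0 and 1.05 CPM, 4 counts in all in Ls174 (log2 fold change 11.85, SE 0.96, adjusted p = 0.0001). AMBP, the precursor of alpha-1-microglobulin and bikunin, was read in all 3 Ls174 libraries, at 5.02, 12.9 and 33.6 CPM, and at 3607, 5256 and 4505 CPM in HepG2 (log2 fold change 7.99, SE 0.81, adjusted p = 0.00019). Each of these carriers was higher in every HepG2 library than in any Ls174 library. With Ls174 control 3 left out, TF and RBP4 were at least 4665 and 2997-fold higher in HepG2, and AMBP had a log2 fold change of 8.93. The acute-phase proteins ORM1 and ORM2, whose near-identical copies may share reads, reached 695 ± 112 and 568 ± 94.3 CPM in HepG2 (SD, n = 3). ITIH3, a heavy chain that binds hyaluronan, had 0 counts in Ls174 and 41.9, 219 and 78.2 CPM in HepG2, at least 338-fold higher, while its relative ITIH4 had the smallest difference of the list (log2 fold change 2.48, SE 0.63, adjusted p = 0.019), a call lost without HepG2 control 3, Ls174 control 2 or Ls174 control 3 (adjusted p 0.051 to 0.074). Of the 4 members that did not pass the filter, FETUB had 7.12, 3.40 and 8.73 CPM in HepG2 and 0 in Ls174, and LECT2 had 0 counts in all 6 libraries.

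Clotting, protease inhibitor and complement genes gave the largest median difference of the 16 lists. Of 41 members 31 passed the filter, 30 were called higher in HepG2 and 1, F12, higher in Ls174, counts that were the same without Ls174 control 3 and without the 2 libraries that lay apart. The median log2 fold change was 8.70, or 8.26 with genes at 0 set to their bound. The 3 fibrinogen chains, which form the fibrin clot, were at 1715, 1850.2 and 1775 CPM for FGA, 924, 259 and 811 CPM for FGB and 2079.8, 2399 and 1338 CPM for FGG in HepG2. In Ls174 all 3 chains were at 0 in the first and second library and at 3.42, 1.58 and 3.15 CPM in Ls174 control 3. Prothrombin, F2, had 427, 796 and 496 CPM against 0, 0.630 and 4.20 CPM (log2 fold change 8.26, SE 0.92, adjusted p = 0.00029). SERPINA1, the elastase inhibitor alpha-1-antitrypsin, reached 874, 3086 and 1217 CPM in HepG2, highest in the second library (log2 fold change 9.95, SE 1.29, adjusted p = 0.00064; 9.21 without HepG2 control 2). Without Ls174 control 3, SERPINA1 was at least 2972-fold higher, FGA, FGB and FGG at least 3065, 1145 and 3339-fold, and F2, on 2 counts left in Ls174, was higher too (1347-fold, 95% counting interval 373 to 11128).

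C3, the central complement component, was at 381, 523 and 665 CPM in HepG2 and 0, 0 and 1.31 CPM in Ls174 (log2 fold change 9.83, SE 0.86, adjusted p = 0.00011), and was at least 901-fold higher without Ls174 control 3. C4A and C4B, near-identical copies whose split is uncertain, had 0 counts in Ls174 and were at least 266-fold and 373-fold higher in HepG2. VTN, vitronectin, was likewise at 0 in Ls174 and at least 129.9-fold higher, with 38.4, 40.8 and 51.2 CPM in HepG2. F12, which starts the contact pathway of clotting, went the other way, with 15.3, 31.3 and 14.6 CPM in HepG2 and 126, 91.1 and 92.8 CPM in Ls174 (log2 fold change -2.36, SE 0.41, adjusted p = 0.0026). PLG, plasminogen, was too low to test, at 2.19, 0.679 and 4.58 CPM in HepG2 and 0 in Ls174.

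Apolipoproteins and the proteins that load them with lipid were mostly higher in HepG2. Of 29 members 22 passed the filter, 20 were called higher in HepG2 and 1 higher in Ls174 (19 and 0 without Ls174 control 3, 20 and 2 without the 2 libraries that lay apart), and the median log2 fold change was 8.17, or 7.21 with genes at 0 set to their bound. APOA1, the main protein of HDL, was at 1303, 3395 and 1187 CPM in HepG2 and 0, 0 and 4.20 CPM in Ls174 (log2 fold change 10.21, SE 1.27, adjusted p = 0.00051). APOB, the core protein of VLDL and LDL, was at 2232, 3509 and 3278 CPM against 0, 0 and 28.6 CPM (log2 fold change 8.23, SE 1.65, adjusted p = 0.006). APOA1 and APOB, taken without Ls174 control 3, were at least 3378 and 5176-fold higher, and without HepG2 control 2 the log2 fold change of APOA1 was 9.54. MTTP, the transfer protein that lipidates APOB, was at 0 in Ls174 and at 70.4, 50.3 and 53.2 CPM in HepG2, at least 173-fold higher. APOA5 was at least 499-fold higher, with 158, 186 and 157 CPM in HepG2, all 3 within a narrow range. APOC2 and APOC4 had nearly the same counts, since their annotated 3′ regions overlap, so that their levels cannot be told apart.

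SCARB1, the HDL receptor, was higher in HepG2 by a small amount, 89.1, 82.2 and 122 against 40.1, 52.6 and 38.4 CPM (log2 fold change 1.16, SE 0.33, adjusted p = 0.031), and kept its call only when HepG2 control 2 was the library left out (adjusted p otherwise 0.062 to 0.14).

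**Figure D3:**
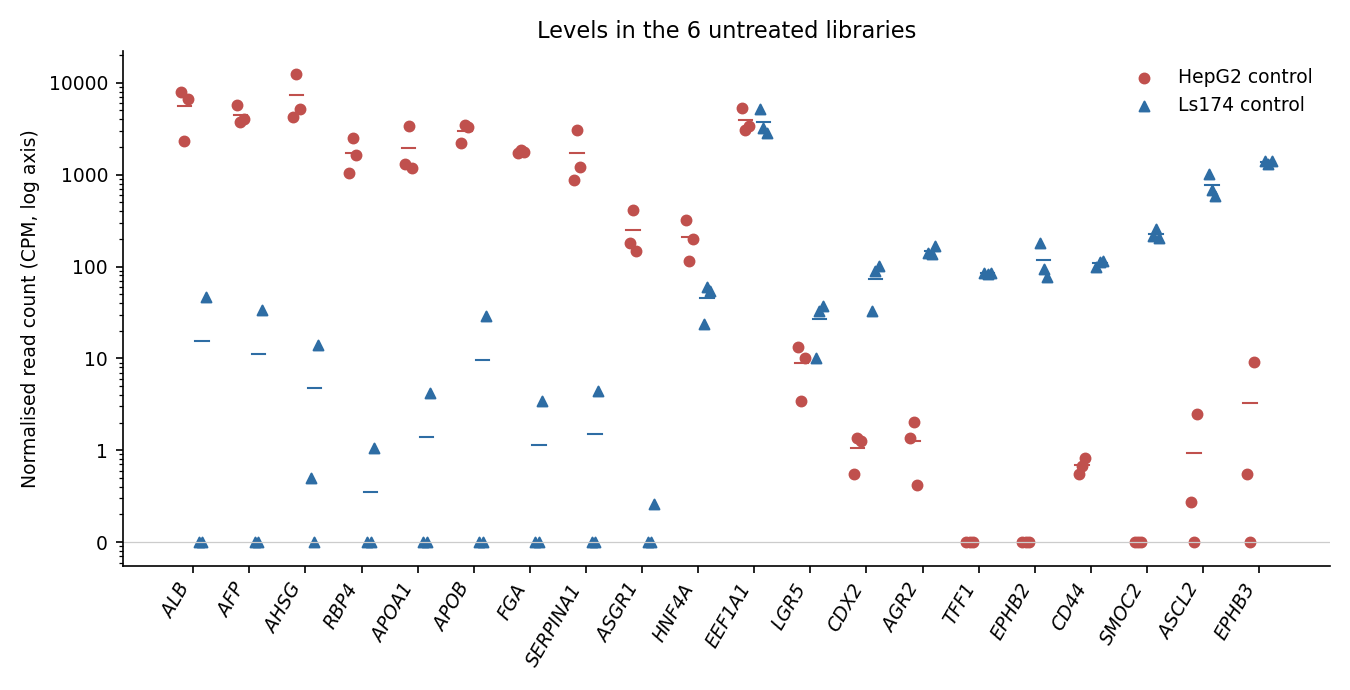
Level of 20 genes in each of the 6 untreated libraries, in CPM on a log axis with values below 0.1 drawn at the line marked 0. Red circles are the HepG2 and blue triangles the Ls174 libraries, and bars mark the line means; the liver genes at the left are at 100 CPM or more in each HepG2 library, EEF1A1 overlaps between the lines, and the genes from TFF1 to EPHB3 are at 10 CPM or less in each HepG2 library.

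Promoter sequence was read for genes of both lines to show letters that several of these promoters share. The 250 bases before the annotated start (RefSeq, GRCh38.p14) were searched on both strands for GTTAAT, letters known from liver promoters, and for CAAAGT, the core bound by HNF4. GTTAAT was present in 6.22% of 27305 promoters of the table and in 3.32% of the 8168 tested genes that had one there. It was present in 5 of 17 promoters of the called plasma carriers (29.4%), in 5 of 23 of the clotting and complement genes (21.7%) and in 2 of 11 of the mucin and goblet cell genes higher in Ls174 (18.2%). Over all called genes the shares were 5.19% of those higher in HepG2 and 4.20% of those higher in Ls174. Of the other lists it was in 4 of 22 promoters of the drug-metabolizing genes (18.2%) and in none of 10 of hepatocyte metabolism. Among genes higher in HepG2 it was also in 2 of 14 apolipoprotein genes (14.3%), 1 of 4 fetal and imprinted genes (25%) and 0 of 8 stem cell and Wnt genes. Among genes higher in Ls174 it was in 2 of 10 stem cell and Wnt genes (20%), 1 of 9 intestinal identity genes (11.1%) and 1 of 6 junction genes (16.7%). CAAAGT was present in 6.44% of tested genes, in 5 of the 17 plasma carriers (29.4%), in 5 of 22 drug-metabolizing genes (22.7%), in none of 10 of hepatocyte metabolism and in 1 of 11 mucin and goblet cell genes (9.09%). Among further genes higher in HepG2, CAAAGT was in 4 of 23 clotting and complement genes (17.4%), 2 of 14 apolipoprotein genes (14.3%), 0 of 4 fetal and imprinted genes and 1 of 8 stem cell and Wnt genes (12.5%). Of the other lists higher in Ls174 it was in 2 of 9 intestinal identity genes (22.2%), 1 of 10 stem cell and Wnt genes (10%) and none of 6 junction genes. Over all called genes it was in 9.26% of those higher in HepG2 and 5.51% of those higher in Ls174. CAAAGT was in 10.4% of all promoters of the table. TTTATG, a core bound by CDX factors, was present in 10.0% of all promoters, 4.58% of tested genes, 5.89% of those higher in HepG2 and 6.69% of those higher in Ls174. By list TTTATG was in 5 of 22 drug-metabolizing (22.7%) and 4 of 23 clotting and complement genes (17.4%) higher in HepG2, beside 2 of 11 mucin and goblet cell genes (18.2%) higher in Ls174. The FOXA core TGTTTAC, in 2.98% of all promoters and 1.93% of tested genes, was present in 2.34% and 2.36% of the same 2 groups. By list its highest shares were in 2 of 9 intestinal identity genes higher in Ls174 (22.2%) and 3 of 23 clotting and complement genes (13%). ATCAAAG, a TCF core, was in 1.25% of tested genes and in 1.30% and 1.18% of these 2 groups. It was in 0 of 10 stem cell and Wnt genes higher in Ls174 and 1 of 8 higher in HepG2 (12.5%). The KLF box GGGCGTG was in 12.8%, 12.3% and 13.4%, and the CEBP palindrome TTGCGCAA in 0.208%, 0.346% and 0.394%. These are counts of letters and were not tested. The promoters below, 5′ to 3′ on the strand of the gene, are shown because they hold GTTAAT or its complement ATTAAC close to the start of highly expressed liver genes, and because that of MUC13, a membrane mucin read only in Ls174, holds it too. Capitals mark GTTAAT or ATTAAC and, in MUC13, also ACTTTG, the complement of CAAAGT. ALB lies at chr4:73404037-73404286 (plus strand), FGB at chr4:154562730-154562979 (plus strand), F2 at chr11:46718963-46719212 (plus strand) and MUC13 at chr3:124934752-124935001 (minus strand).
ALB: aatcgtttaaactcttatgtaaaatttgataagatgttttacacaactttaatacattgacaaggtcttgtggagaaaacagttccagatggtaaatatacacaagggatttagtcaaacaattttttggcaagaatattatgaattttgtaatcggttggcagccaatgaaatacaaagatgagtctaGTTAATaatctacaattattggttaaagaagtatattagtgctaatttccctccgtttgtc
FGB: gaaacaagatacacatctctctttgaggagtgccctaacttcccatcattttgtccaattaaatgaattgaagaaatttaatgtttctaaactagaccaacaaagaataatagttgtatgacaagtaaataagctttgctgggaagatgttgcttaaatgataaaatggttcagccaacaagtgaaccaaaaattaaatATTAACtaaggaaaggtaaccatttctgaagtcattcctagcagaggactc
F2: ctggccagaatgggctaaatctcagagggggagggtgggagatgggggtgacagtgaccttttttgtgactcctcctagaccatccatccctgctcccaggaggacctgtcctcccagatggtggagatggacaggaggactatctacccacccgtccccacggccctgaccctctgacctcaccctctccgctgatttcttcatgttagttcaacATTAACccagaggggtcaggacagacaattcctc
MUC13: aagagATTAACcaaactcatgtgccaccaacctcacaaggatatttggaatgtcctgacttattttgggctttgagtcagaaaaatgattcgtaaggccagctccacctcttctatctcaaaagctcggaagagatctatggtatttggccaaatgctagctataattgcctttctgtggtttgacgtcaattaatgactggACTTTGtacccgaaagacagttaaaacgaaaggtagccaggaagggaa
The match lies 61 to 56 bases before the start in ALB, 51 to 46 in FGB, 34 to 29 in F2 and 245 to 240 in MUC13, where ACTTTG lies 48 to 43 bases before it.

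Fetal liver and imprinted genes were mostly higher in HepG2, with H19 as the exception. Of 19 members 15 passed the filter, 11 were called higher in HepG2 and 1 higher in Ls174, the same counts without Ls174 control 3 (12 and 3 without the 2 libraries that lay apart), with a median log2 fold change of 8.06. AFP, the fetal counterpart of albumin and a serum marker of liver cancer, was at 5736, 3719 and 4039 CPM in HepG2 and 0, 0 and 33.9 CPM in Ls174 (log2 fold change 8.58, SE 1.73, adjusted p = 0.0062). GPC3, a cell surface proteoglycan used as a marker of hepatocellular carcinoma, was at 692, 842 and 833 CPM against 0, 0.315 and 6.04 CPM (log2 fold change 8.35, SE 1.05, adjusted p = 0.00055). IGF2 and H19 are neighbours on chromosome 11 that are read from opposite parental copies. IGF2, a fetal growth factor, was at 2499, 876 and 1579.7 CPM in HepG2 and 0, 0 and 17.1 CPM in Ls174 (log2 fold change 8.08, SE 1.52, adjusted p = 0.0042). Without Ls174 control 3, AFP and IGF2 were at least 7745 and 2844-fold higher in HepG2, and GPC3, on 1 count left in Ls174, was higher too (3959-fold, 95% counting interval 710.4 to 156415). H19, a non-coding RNA, had 0 counts in HepG2 and 83.3, 97.7 and 119 CPM in Ls174, at least 250.4-fold higher there. The 2 neighbours thus stood in opposite order in the untreated libraries, each without overlap. In the HME libraries AC132217.4, which shares its region with IGF2, had means of 1738 CPM in HepG2 and 180 CPM in Ls174. It was not called there by the same test (log2 fold change 3.27, adjusted p = 0.075). H19 was again higher in Ls174 there (log2 fold change -3.96, adjusted p = 0.0011).

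The RNA-binding protein genes IGF2BP1 and LIN28B, which are silent in most adult tissues, had 1 count each in Ls174, and IGF2BP1 was at 110.4, 74.1 and 98.6 CPM in HepG2 (893-fold, 95% counting interval 159.8 to 35313). DLK1, a Notch-like protein of hepatoblasts, was at 716, 78.8 and 458 CPM in HepG2, lowest in the second library, and at 0, 0 and 1.84 CPM in Ls174, at least 719-fold higher without Ls174 control 3. HMGA2, a fetal chromatin protein, was read in both lines, at 245, 114 and 260.4 and 8.03, 33.7 and 29.96 CPM (log2 fold change 3.10, SE 0.58, adjusted p = 0.0039). IGF2BP3 (log2 fold change 1.00, SE 0.43, adjusted p = 0.13) and MEST (log2 fold change -1.38, SE 0.53, adjusted p = 0.094) did not pass the test, though IGF2BP3 did without HepG2 control 2 (log2 fold change 1.27, adjusted p = 0.041).

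The liver transcription factors were divided, with both called and uncalled members among the best known. Of 26 members 22 passed the filter, 9 were called higher in HepG2 (7 without Ls174 control 3, 10 without the 2 libraries that lay apart) and 1 higher in Ls174, with a median log2 fold change of 1.10. HNF4A, the nuclear receptor that holds hepatocyte identity and is also read in gut epithelium, was at 319.8, 114 and 198 CPM in HepG2 and 23.6, 59.3 and 54.4 CPM in Ls174 (log2 fold change 2.20, SE 0.50, adjusted p = 0.011). CEBPA was at 170.4, 349 and 117 against 39.1, 13.2 and 12.9 CPM (log2 fold change 3.30, SE 0.61, adjusted p = 0.0037; 4.01 without Ls174 control 1). FOXA2 (log2 fold change 1.31, SE 0.33, adjusted p = 0.019) and FOXA3 (log2 fold change 3.64, SE 0.68, adjusted p = 0.0039; 2.61 without HepG2 control 2) were also called, while FOXA1 had 29.6, 68.6 and 22.5 CPM in HepG2 and 67.2, 44.8 and 35.2 CPM in Ls174 (log2 fold change -0.30, SE 0.48, adjusted p = 0.71). The largest differences were in NR1H4, the bile acid receptor FXR, and GATA4, both at 0 in Ls174 and at least 78.9-fold and 42.4-fold higher in HepG2. GATA6, a factor of gut and early liver, was higher in Ls174, at 16.1, 21.8 and 13.9 CPM against 2.74, 3.40 and 5.82 CPM (log2 fold change -2.11, SE 0.50, adjusted p = 0.014). The calls of FOXA2, without HepG2 control 1, HepG2 control 3 or Ls174 control 3, and of GATA6, without HepG2 control 1 or Ls174 control 2, were lost (adjusted p 0.059 to 0.086).

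Metabolic genes of the hepatocyte were divided. Of 47 members 25 passed the filter, 15 were called higher in HepG2 and 3 higher in Ls174, the same counts without Ls174 control 3 (18 and 3 without the 2 libraries that lay apart), with a median log2 fold change of 3.09. Both chains of the asialoglycoprotein receptor, which clears glycoproteins from blood, were nearly confined to HepG2, with ASGR1 at 179, 412 and 149 CPM against a single count in Ls174 (1931-fold, 95% counting interval 346 to 76324). The tyrosine breakdown enzymes HGD, at 328, 328 and 290.3 CPM against 2.51, 2.52 and 5.78 CPM (log2 fold change 6.39, SE 0.48, adjusted p = 9.2e-05), FAH (log2 fold change 7.51, SE 0.73, adjusted p = 0.00017) and HPD, at least 203-fold, were all higher in HepG2. FAH had counts in Ls174 control 3 alone of the Ls174 libraries, and without it was at least 149-fold higher. CYP27A1, a sterol hydroxylase of bile acid synthesis, had 3 counts in Ls174 and 142, 183 and 151 CPM in HepG2 (457-fold, 95% counting interval 156 to 2221).

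The urea cycle did not separate the lines in the same way. CPS1, which starts the cycle, was low in both, at 20.6, 4.08 and 14.97 CPM in HepG2 and 7.02, 11.7 and 9.46 CPM in Ls174 (log2 fold change 0.52, SE 0.58, adjusted p = 0.58), and ASS1 did not pass the test either (log2 fold change 0.52, SE 0.40, adjusted p = 0.4). ASL was called higher in HepG2 (log2 fold change 1.55, SE 0.43, adjusted p = 0.029), but not without HepG2 control 2, HepG2 control 3, Ls174 control 1 or Ls174 control 2 (adjusted p 0.051 to 0.089). OTC and ARG1 were too low to test, at no more than 1.37 CPM in any library. PCK1, the controlled step of gluconeogenesis, was higher in Ls174, at 66.2, 208 and 189.7 CPM against 10.96, 4.08 and 11.2 CPM (log2 fold change -4.10, SE 0.58, adjusted p = 0.00097). BAAT, which conjugates bile acids, was also higher in Ls174 (log2 fold change -2.08, SE 0.44, adjusted p = 0.0083). CYP7A1, the rate-limiting enzyme of bile acid synthesis, was too low to test, at 1.10, 4.08 and 1.25 CPM in HepG2.

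Drug-metabolizing enzymes and transporters were called in both directions, most of them higher in HepG2. Of 72 members 44 passed the filter, 28 were called higher in HepG2 (27 without Ls174 control 3, 32 without the 2 libraries that lay apart) and 7 higher in Ls174 (6 and 7), with a median log2 fold change of 3.24. Among reductases, AKR1C1 was at 1625, 2436 and 1847 CPM in HepG2 and 44.1, 29.00 and 91.7 CPM in Ls174 (log2 fold change 5.16, SE 0.56, adjusted p = 0.00025), and AKR1C2 at 442, 413 and 452 against 13.5, 20.8 and 47.3 CPM, though reads of these near-identical relatives may be shared. Their log2 fold changes were 5.76 and 4.66 without Ls174 control 3. The efflux pumps ABCC2 (log2 fold change 6.36, SE 0.60, adjusted p = 0.00015; 7.003 without Ls174 control 1) and ABCB1 (log2 fold change 4.59, SE 0.52, adjusted p = 0.00031), which export conjugates and drugs, were higher in HepG2. The sulfotransferase SULT2A1 was at 291, 75.4 and 219.6 CPM in HepG2 and 0, 0 and 2.37 CPM in Ls174 (log2 fold change 7.64, SE 1.02, adjusted p = 0.00075), at least 336-fold higher without Ls174 control 3. Of the main cytochromes of adult liver, CYP3A4 had a single count in the 6 libraries, at 0.274, 0 and 0 CPM in HepG2. CYP1A1, which responds to aromatic hydrocarbons, was at 76.2, 23.8 and 56.6 CPM in HepG2 and 0, 6.62 and 11.04 CPM in Ls174 (log2 fold change 3.07, SE 0.87, adjusted p = 0.031), a call lost without HepG2 control 1, HepG2 control 3 or Ls174 control 2 (adjusted p 0.074 to 0.10), with a log2 fold change of 3.87 without Ls174 control 3.

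Conjugation enzymes of the same family stood in opposite order in the lines. GSTP1, the glutathione transferase of most epithelia, was at 3.56, 1.36 and 7.07 CPM in HepG2 and 1762, 1295 and 1027 CPM in Ls174 (log2 fold change -8.34, SE 0.65, adjusted p = 0.0001; -8.95 without HepG2 control 3). GSTA1, the transferase of hepatocytes, was at 125, 87.7 and 109 CPM in HepG2 and 0, 0 and 1.05 CPM in Ls174 (log2 fold change 7.82, SE 0.75, adjusted p = 0.00015), at least 185-fold higher without Ls174 control 3. The UGT1A glucuronosyltransferases share their last exons, and 9 genes of the locus were counted over the same 3′ region at chr2:234681206-234682142 (GRCh37, plus strand), so they are 1 measurement and no single isoform can be named. That region, listed for example as UGT1A1, was at 9.32, 9.51 and 8.32 CPM in HepG2 and 1053, 2137 and 2123 CPM in Ls174 (log2 fold change -7.61, SE 0.52, adjusted p = 8.0e-05). The separate UGT2B4 gene was instead read at 30.96, 33.97 and 25.4 CPM in HepG2 with 1 count in Ls174 (267-fold, 95% counting interval 47.4 to 10593). SLCO1B3, an organic anion carrier of the hepatocyte membrane, was at 19.1, 29.9 and 38.1 CPM in Ls174 and had 2 counts in HepG2 (117-fold, 95% counting interval 31.98 to 968, higher in Ls174).

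Mucin and goblet cell genes were the list with the lowest median. Of 49 members 23 passed the filter, 18 were called higher in Ls174 (17 without Ls174 control 3, 19 without the 2 libraries that lay apart), against 9.33% of all genes tested, and 4 higher in HepG2. The median log2 fold change was -5.03, or -4.46 with genes at 0 set to their bound. TFF1, a trefoil peptide secreted with mucus, was at 0 in HepG2 and 84.3, 83.2 and 84.9 CPM in Ls174, at least 211-fold higher, with hardly any spread between libraries. TFF3, the trefoil peptide of goblet cells, was read in both lines, at 15.9, 13.6 and 21.2 CPM in HepG2 and 81.3, 71.9 and 72.5 CPM in Ls174 (log2 fold change -2.14, SE 0.33, adjusted p = 0.0015). AGR2, a disulfide isomerase needed to fold mucins, was at 1.37, 2.04 and 0.416 CPM against 140.0, 136 and 165 CPM (log2 fold change -6.88, SE 0.51, adjusted p = 9.2e-05).

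Among the mucins, MUC13 was at 71.2, 24.3 and 22.6 CPM in Ls174 and 0 in HepG2, at least 98.8-fold higher. The gastric-type mucins MUC5AC, at 25.6, 25.2 and 25.5 CPM, and MUC6, at 141, 34.04 and 24.4 CPM, had 3 and 1 counts in HepG2 (63.8-fold, 95% counting interval 21.5 to 311, for MUC5AC). MUC6 was highest in Ls174 control 1, and MUC5AC was level over the 3 Ls174 libraries. SLC12A2, the chloride uptake carrier of secreting epithelia, had the highest level of the list, at 846, 639.9 and 649 CPM in Ls174 and 21.9, 29.2 and 14.6 CPM in HepG2 (log2 fold change -5.03, SE 0.43, adjusted p = 0.0001). Of the enzymes that build mucin sugars, GALNT12 was at 0 in HepG2 and FUT3 at 49.2, 25.8 and 50.5 CPM in Ls174 (156-fold, 95% counting interval 42.9 to 1293). Of the goblet cell transcription factors ATOH1 was not read and SPDEF had 2 counts in Ls174 control 3. The 4 members higher in HepG2 were LYZ, lysozyme, at 454, 99.2 and 568 CPM (log2 fold change 7.35, SE 0.96, adjusted p = 0.00065; 8.86 without Ls174 control 3), GCNT3, an enzyme that branches mucin sugars, the mucus protein FCGBP and the factor FOXA3, which is also a liver factor.

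The genes of intestinal identity went both ways. Of 56 members 29 passed the filter, 14 were called higher in Ls174 and 9 higher in HepG2 (13 and 9 without Ls174 control 3, 17 and 11 without the 2 libraries that lay apart), with a median log2 fold change of -1.07. CDX1 was at 211, 113 and 109 CPM in Ls174 and had 2 counts in HepG2 (501-fold, 95% counting interval 138 to 4144). CDX2, which sets gut identity in the embryo, was at 32.6, 88.6 and 101 CPM in Ls174, lowest in the first library, and 0.548, 1.36 and 1.25 CPM in HepG2 (log2 fold change -6.20, SE 0.65, adjusted p = 0.00022). The gut factor KLF5 was also higher in Ls174 (log2 fold change -5.50, SE 0.42, adjusted p = 9.7e-05). Of surface and secreted proteins, PHGR1 was at 35.6, 89.2 and 84.6 CPM in Ls174 and 0 in HepG2, TSPAN8 at 212, 272 and 277 against 4.11, 0.679 and 3.33 CPM (log2 fold change -6.41, SE 0.54, adjusted p = 0.0001), and PLA2G2A, an antibacterial phospholipase, at 517, 421 and 385 against 13.2, 8.83 and 24.1 CPM (log2 fold change -4.83, SE 0.47, adjusted p = 0.00017). CDH17, the adhesion protein liver-intestine cadherin, was at 8.53, 28.4 and 31.5 CPM in Ls174 with 1 count in HepG2.

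Of the 9 members higher in HepG2, FABP1, the liver fatty acid binding protein, was at 1067, 1054 and 683 CPM in HepG2 and 0, 1.89 and 10.8 CPM in Ls174 (log2 fold change 7.67, SE 1.05, adjusted p = 0.00083; 9.70 without Ls174 control 3). A1CF, a cofactor of the enzyme that edits APOB RNA, the peptidase ANPEP (257-fold, 95% counting interval 70.7 to 2128) and the peptidase DPP4 (log2 fold change 4.59, SE 0.64, adjusted p = 0.00092) were among them. Some markers of differentiation were low in Ls174: KRT20 was at 0, CEACAM5 at 0, 4.73 and 4.20 CPM and GUCY2C at 0, 2.21 and 0.526 CPM. Other members of the list were read there, among them PHGR1 and CDH17 above. LGALS4 had 46, 208 and 327 counts in its leading Ls174 region. VIL1 did not pass the test (log2 fold change 1.14, SE 0.48, adjusted p = 0.13) but did without HepG2 control 2, its lowest HepG2 library (log2 fold change 1.52, adjusted p = 0.011).

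Stem cell and Wnt target genes, of which both lines read many, were held by different members. Of 47 members 34 passed the filter, 12 were called higher in Ls174 and 10 higher in HepG2 (11 and 8 without Ls174 control 3, 16 and 12 without the 2 libraries that lay apart), with a median log2 fold change of -0.42. ASCL2, the factor of crypt base stem cells, was at 1021, 688 and 588 CPM in Ls174 and 0.274, 0 and 2.50 CPM in HepG2 (log2 fold change -9.59, SE 0.85, adjusted p = 0.00012). EPHB3, a receptor that places cells along the crypt, had the highest level in Ls174 outside the UGT1A locus among called genes beyond a log2 fold change of 2 that way, at 1424, 1321 and 1420.0 CPM against 0.548, 0 and 9.15 CPM (log2 fold change -8.69, SE 1.12, adjusted p = 0.00061). Without HepG2 control 3, HepG2 held 1 count of ASCL2 (3684-fold, 95% counting interval 661 to 145523) and 2 of EPHB3 (3549-fold, 95% counting interval 982 to 29306). Without HepG2 control 1 their log2 fold changes were -8.99 and -8.09. EPHB2, a relative of EPHB3, was at 182, 94.3 and 77.8 CPM and 0 in HepG2, at least 296-fold higher. SMOC2, a matrix protein of stem cells, ranked first by fitted fold among the genes higher in Ls174, at 217, 258 and 205 CPM and 0 in HepG2, at least 569-fold. OLFM4 and MYB were likewise at 0 in HepG2, and at 46.2, 49.8 and 58.3 and 87.8, 110.0 and 93.03 CPM in Ls174.

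CD44, a hyaluronan receptor, was at 97.8, 111 and 116 CPM in Ls174 and 0.548, 0.679 and 0.832 CPM in HepG2 (log2 fold change -7.24, SE 0.44, adjusted p = 8.0e-05). MYC was higher in Ls174, at 109.9, 35.6 and 30.2 CPM, highest in the first library, against 9.59, 16.3 and 17.1 CPM (log2 fold change -2.03, SE 0.56, adjusted p = 0.029), a call kept without Ls174 control 2 or Ls174 control 3 and lost without any of the others (adjusted p 0.050 to 0.10), with a log2 fold change of -1.22 without Ls174 control 1. LGR5, the receptor that marks these stem cells, was read in both lines without a call, at 13.2, 3.40 and 9.98 CPM in HepG2 and 10.03, 33.1 and 37.3 CPM in Ls174 (log2 fold change -1.56, SE 0.62, adjusted p = 0.11). AXIN2, the general Wnt feedback gene, was not called either (log2 fold change -1.39, SE 0.58, adjusted p = 0.12), nor was RNF43, whose sign changed with the scaling of the counts (log2 fold change 0.10, SE 0.40, adjusted p = 0.89). Without Ls174 control 1, LGR5 and AXIN2 were called higher in Ls174 (log2 fold changes -1.93 and -1.79, adjusted p = 0.023 and 0.026). The feedback inhibitors NOTUM, at 0 in Ls174 and at least 146-fold higher in HepG2, and NKD1, at 128, 98.5 and 139 against 8.53, 10.7 and 9.46 CPM (log2 fold change 3.66, SE 0.35, adjusted p = 0.00015), were higher in HepG2. The Wnt target factor SP5, at 298, 126 and 228 against 0, 0.630 and 2.37 CPM (log2 fold change 7.51, SE 0.78, adjusted p = 0.00022), the inhibitor DKK1 (log2 fold change 5.40, SE 0.69, adjusted p = 0.00058) and TCF7 (log2 fold change 2.81, SE 0.65, adjusted p = 0.012) were too. Their log2 fold changes were 9.01 without Ls174 control 3, 6.01 without Ls174 control 2 and 1.75 without HepG2 control 2.

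Junction and keratin genes were called higher in Ls174 more often than all genes tested (26.3% against 9.33%). Those called higher in HepG2 were 7.89%, against 14.2%, and most of the list was not called. Of 58 members 38 passed the filter, 10 were called higher in Ls174 and 3 higher in HepG2, the same counts without Ls174 control 3 (18 and 8 without the 2 libraries that lay apart), with a median log2 fold change of -0.60. Of the classical cadherins CDH2, N-cadherin, the cadherin that hepatocytes keep beside E-cadherin, was at 47.4, 46.2 and 39.5 CPM in HepG2 and 0 in Ls174, at least 133-fold higher, while CDH1, E-cadherin, was at 14.8, 9.51 and 7.07 and 14.5, 18.3 and 16.8 CPM (log2 fold change -0.65, SE 0.43, adjusted p = 0.33). The claudins also divided, with CLDN7 at 77.8, 176 and 151 CPM and CLDN3 at 56.7, 34.7 and 27.3 CPM in Ls174 against 0 and 1 counts in HepG2, and CLDN6, an embryonic claudin, at 11.5, 8.15 and 8.73 CPM in HepG2 (89.4-fold, 95% counting interval 15.6 to 3578). Of the gap junction genes, GJB1, the connexin of hepatocytes, was higher in HepG2 (log2 fold change 3.80, SE 0.80, adjusted p = 0.0078), and GJA1, with 2 counts in HepG2, was at 61.2, 40.7 and 40.7 CPM in Ls174. EPCAM was read in both and was higher in Ls174, at 449, 605 and 583 against 193, 59.8 and 156 CPM (log2 fold change -1.99, SE 0.46, adjusted p = 0.013). The simple epithelial keratins KRT8, KRT18 and KRT19 were not called, and KRT19 was at 278, 1064 and 227 CPM in HepG2 and 226, 247 and 230.0 CPM in Ls174.

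Of the S100 proteins and annexins 17 of 28 passed the filter, 4 were called higher in HepG2 and 5 higher in Ls174 (3 and 3 without Ls174 control 3, 6 and 7 without the 2 libraries that lay apart), with a median log2 fold change of -0.53. The count in Ls174 was 3 as well without HepG2 control 1, HepG2 control 3 or Ls174 control 2. S100A6 was at 1126, 1350.1 and 1481 CPM in Ls174 and 278, 195 and 174 CPM in HepG2 (log2 fold change -2.61, SE 0.37, adjusted p = 0.001), and S100A14 at 429.9, 201 and 200.3 against 0.274, 8.83 and 3.33 CPM (log2 fold change -6.24, SE 0.91, adjusted p = 0.0011; -5.55 and -7.39 without HepG2 control 1 or 2). S100A1 was read only in HepG2, at 26.3, 77.5 and 46.6 CPM, at least 149.9-fold higher. ANXA2 was higher in Ls174 (log2 fold change -1.81, SE 0.39, adjusted p = 0.0082) and ANXA6 higher in HepG2 (log2 fold change 5.95, SE 0.59, adjusted p = 0.00018; 6.59 without Ls174 control 1).

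Of the antigen presentation genes 16 of 23 passed the filter, with a median log2 fold change of 0.31. Of these 4 were called higher in HepG2 (25%) and none in Ls174, against 14.2% and 9.33% of all genes tested. The counts were 3 and none without Ls174 control 3. They were 7 and 1 without the 2 libraries that lay apart, a fit that called 5615 genes in all. CD74, the invariant chain of MHC class II, was at 114, 118 and 176 CPM in HepG2 and 0, 0.946 and 1.31 CPM in Ls174 (log2 fold change 7.23, SE 0.62, adjusted p = 0.0001), and ERAP2, which trims peptides for class I, was also higher in HepG2 (log2 fold change 5.15, SE 1.01, adjusted p = 0.0052; 3.83 without HepG2 control 2 and 5.89 without Ls174 control 3). B2M, the shared light chain of class I, was not called, at 401, 234 and 349 CPM in HepG2 and 331, 424 and 474 CPM in Ls174 (log2 fold change -0.32, SE 0.35, adjusted p = 0.57). HLA-DRA and the class II activator CIITA had 0 counts in all 6 libraries.

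Proliferation genes were called at shares near those of all genes tested, 10.8% higher in HepG2 and 13.5% higher in Ls174. Of 40 members 37 passed the filter, with a median log2 fold change of -0.26. Of these 4 were called higher in HepG2 and 5 higher in Ls174, against 14.2% and 9.33% of all genes tested. The counts were 2 and 3 without Ls174 control 3. They were 7 and 12 without the 2 libraries that lay apart, a fit that called 5615 genes in all. The count in Ls174 was 3 without HepG2 control 1 and 2 without HepG2 control 3 or Ls174 control 2. MKI67 was at 111, 168 and 149 CPM in HepG2 and 53.2, 70.3 and 80.7 CPM in Ls174 (log2 fold change 1.07, SE 0.33, adjusted p = 0.047), a call lost without any 1 of the 6 libraries (adjusted p 0.051 to 0.15), and MCM6, a subunit of the replicative helicase, at 35.3, 15.6 and 25.4 and 107, 134 and 109.6 CPM (log2 fold change -2.18, SE 0.38, adjusted p = 0.0027). CDKN2A, a cyclin-dependent kinase inhibitor, was read only in HepG2, at 9.86, 10.9 and 13.3 CPM, at least 33.9-fold higher. CDKN1A, which codes for the cell cycle inhibitor p21, was at 287, 118 and 418 CPM in HepG2 and 26.6, 59.6 and 59.7 CPM in Ls174 (log2 fold change 2.49, SE 0.54, adjusted p = 0.0085). MDM2, a ubiquitin ligase, was higher in HepG2 too (log2 fold change 1.52, SE 0.34, adjusted p = 0.011), but not without Ls174 control 2 or Ls174 control 3 (adjusted p 0.076 and 0.059), and p21 and MDM2 were the called genes among the 11 tested of a list of 12, the targets of qPCR assays with 2 genes added. The median log2 fold change of that list was 0.08, and it had 1 gene called higher in HepG2 without Ls174 control 2 or Ls174 control 3 and 4 without HepG2 control 2.

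Of 16 reference genes 15 were not called and 1 was called higher in Ls174 (6.25%), against 23.5% of all genes tested called either way. The median log2 fold change of the 16 was -0.29. EEF1A1 was at 5280.2, 3091 and 3372 CPM in HepG2 and 5239, 3227 and 2874 CPM in Ls174 (log2 fold change 0.05, SE 0.43, adjusted p = 0.95). HPRT1, higher in Ls174 at 89.8, 58.9 and 50.2 against 32.3, 24.5 and 34.1 CPM, lay just past the threshold (log2 fold change -1.12, SE 0.35, adjusted p = 0.049) and was not called without any 1 of the 6 libraries (adjusted p 0.075 to 0.12) or with DESeq2's size factors in place of TMM (0.055). ACTB, TUBA1B and PPIA, common standards, ranged more than 3-fold within a line.

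**Figure D4:**
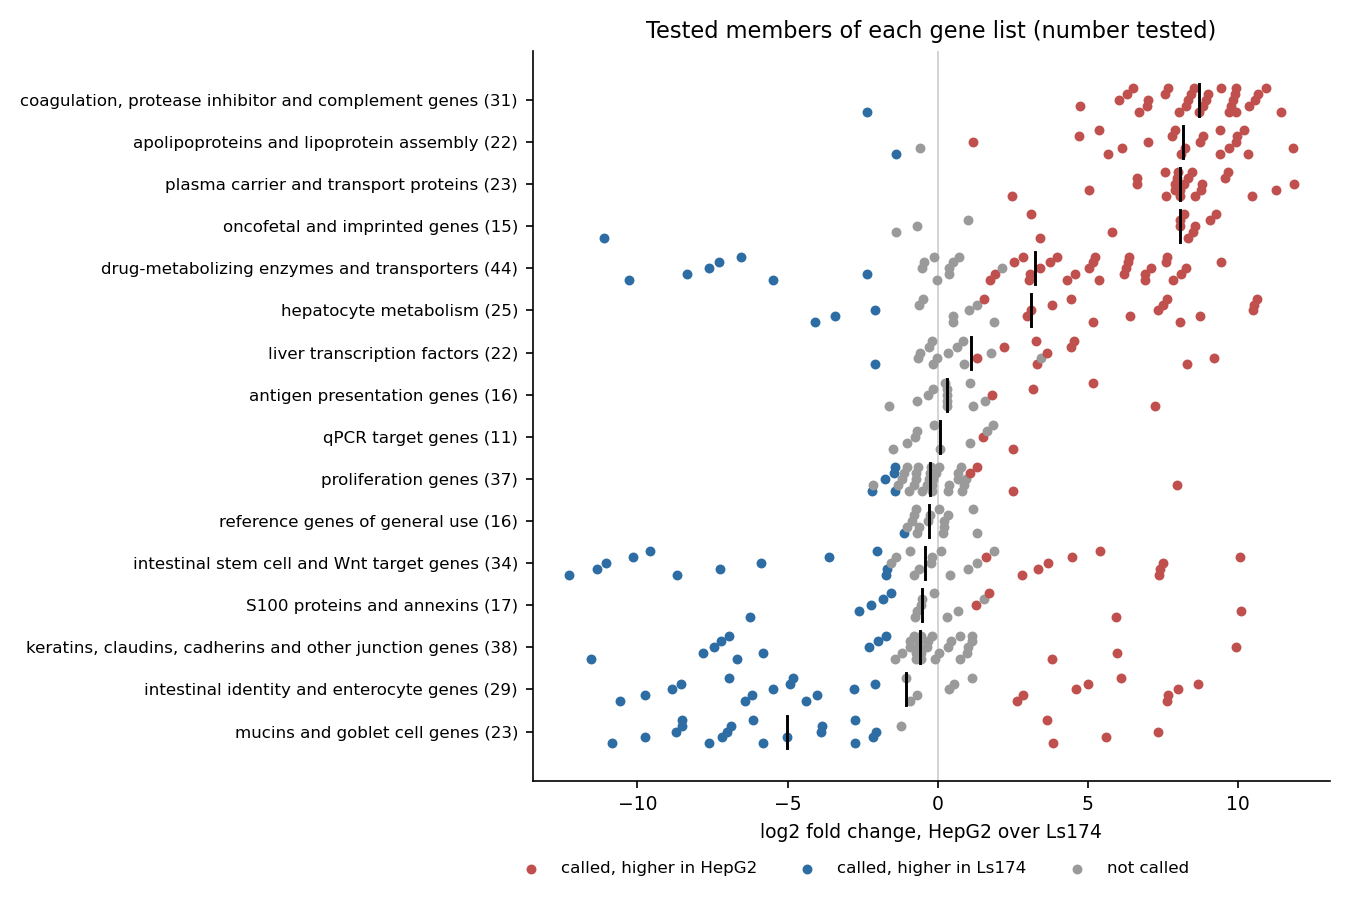
Fitted log2 fold change, HepG2 over Ls174, of every tested member of the 16 gene lists, with the number tested in brackets. Red points are called higher in HepG2, blue called higher in Ls174 and grey not called, and black bars mark list medians, from 8.70 for clotting and complement genes to -5.03 for mucins and goblet cell genes.

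Outside the lists, the rule for the largest folds named liver transport and enzyme genes as well as genes of other functions. In HepG2, SLC13A5, the citrate importer of hepatocytes, was at 51.5, 169 and 69.04 CPM and 0 in Ls174, at least 288-fold higher, and ALDH7A1, an aldehyde dehydrogenase of lysine breakdown, was at 108, 77.5 and 95.2 CPM, at least 279.8-fold. NPTXR, a pentraxin receptor known from neurons, had the largest bound, 505-fold, though its 3 HepG2 levels spread from 60.01 to 304 CPM. SMLR1, CDIP1, CORO2A and SLC17A9 were also at 0 in Ls174, with bounds of 455, 393, 318 and 243-fold. SNRPN, an imprinted splicing gene, had 1 count in Ls174 and 257, 217 and 371 CPM in HepG2 (2563-fold, 95% counting interval 459.5 to 101278). SAA4, a constitutive serum amyloid, shares its region with the read-through gene SAA2-SAA4, and had 1 count in Ls174 against 249, 315 and 376 CPM.

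In Ls174, INSIG1, which holds back sterol synthesis, was at 141, 173 and 198 CPM and had 0 counts in all 3 HepG2 libraries, at least 429-fold higher. Its counts lay mainly in chr7:155099951-155102142 (GRCh37, plus strand), in the last coding exon and 3′ UTR. HOXA9, a homeobox factor of posterior identity, was at 88.3, 79.1 and 88.8 CPM and 0 in HepG2. CALCA, the calcitonin gene, was at 121, 96.5 and 110.4 CPM, the chromatin organizer SATB1 at 86.8, 79.1 and 85.2 CPM and the potassium channel KCNQ1 at 101, 69.98 and 74.9 CPM, all with 0 counts in HepG2 and bounds of 274, 209.9 and 205-fold. PPAP2C, a lipid phosphatase, CLRN3, PPP1R1B and TSTD1 completed the rule, with bounds of 472, 452, 313 and 205-fold.

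By level, called genes were ranked where the lines did not overlap and the log2 fold change lay beyond 2. Of the protein-coding genes so ranked as higher in HepG2, FTL, the ferritin light chain, led. It was at 8970.0, 5803 and 9916 CPM against 1320.4, 1448 and 1790.3 CPM in Ls174 (log2 fold change 2.44, SE 0.43, adjusted p = 0.0028). DHRS2, a short-chain dehydrogenase, was at 4395, 4964 and 4552 CPM against 40.6, 82.3 and 87.5 CPM (log2 fold change 6.04, SE 0.51, adjusted p = 0.0001). MTND1P23, a nuclear copy of a mitochondrial gene, ranked first with 9857, 2134 and 13881 CPM, but reads of the mitochondrial transcript may be counted there, so the value is uncertain.

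Of the non-coding genes, 28 of 156 tested lincRNAs were called higher in HepG2 (17.9%) and 21 higher in Ls174 (13.5%), and of 144 antisense genes 20 (13.9%) and 21 (14.6%) were, against 14.2% and 9.33% of all genes tested. LINC00176 was at 24.1, 105 and 30.8 CPM in HepG2 with 1 count in Ls174. SNHG15, a host of small nucleolar RNA, was at 33.1, 34.7 and 32.9 CPM in Ls174 and had 0 counts in HepG2, at least 84.1-fold. LINC01123 and LINC01106, neighbours in symbol and in counts, were at 51.2, 107 and 125 and 41.1, 104 and 123 CPM in Ls174 with 1 count each in HepG2. The antisense genes DBH-AS1 and RP11-332H18.4, higher in HepG2, and RP6-109B7.3, higher in Ls174, could not be told apart from their partners on the other strand. AC132217.4 shares its region with IGF2. Of 14 small nuclear RNA genes 10 were called higher in HepG2 (71.4%), all of them copies of U1 that may share reads.

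The median difference was not the same on every chromosome. Over 10568 protein-coding genes the median log2 fold change was 0.03, and chromosome 20 stood farthest from it, at 0.97 over 298 genes, of which 98 (32.9%) were called higher in HepG2 and 7 (2.35%) higher in Ls174, against 14.4% and 9.70% over all. Leaving out each library in turn gave 0.91 to 0.96. Chromosome 16 was at 0.50 (22.8% higher in HepG2) and chromosome 2 at 0.40 (21.2%), and at the other end chromosome 4 was at -0.41 and chromosome 18 at -0.39. Chromosome 4 holds ALB, AFP and the fibrinogen genes, which are far higher in HepG2, yet 17.2% of its genes were called higher in Ls174. The HME libraries gave 0.91 for chromosome 20 and -0.35 for chromosome 4. In chromosome 19 the median changed sign with the library left out, from -0.15 to 0.21. DNA copy number was not measured.

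**Figure D5:**
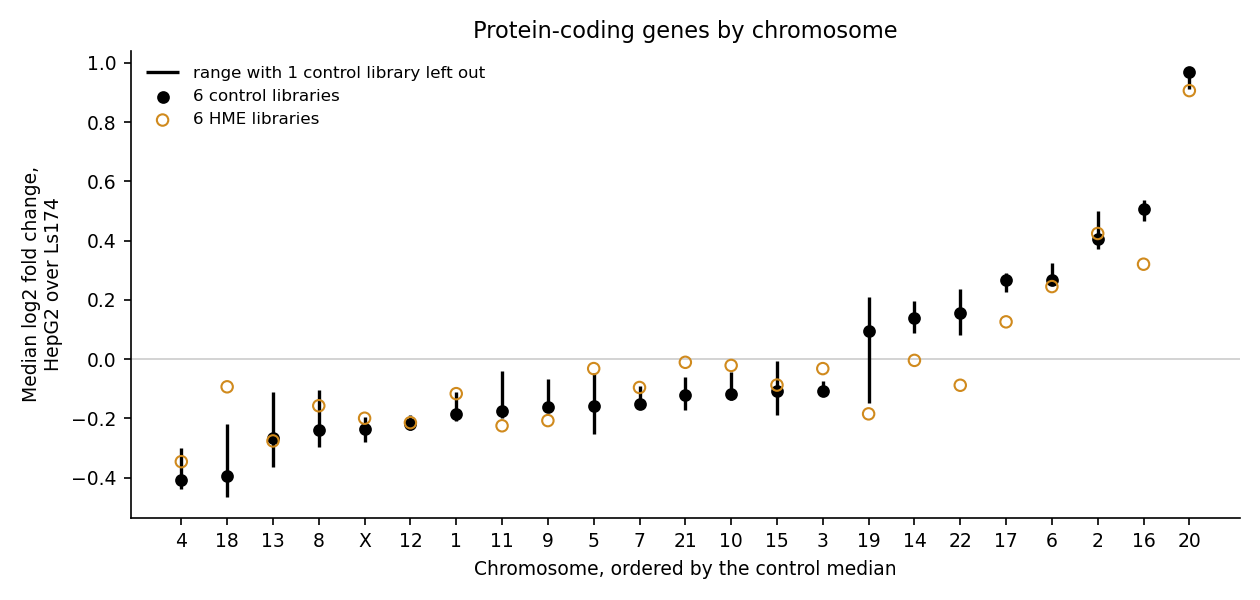
Median log2 fold change, HepG2 over Ls174, of tested protein-coding genes on each chromosome, ordered by the value in the 6 control libraries (black points), with the range over fits that leave out 1 library (bars) and the value in the 6 HME libraries (open circles). Chromosome 20 lies at 0.97, above chromosome 16 at 0.50, and chromosome 4 lowest at -0.41.

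A few genes differed between the lines in the shares of their counted 3′ regions. Of 1264 genes with more than 1 tested 3′ region, 54 (4.27%) changed the share of their regions at an adjusted p under 0.05 (edgeR's diffSpliceDGE), 209 had an unadjusted p under 0.05, and in 17 of the 54 a different region led in each line. The count of 54 depended on single libraries: it was 11, 30 and 8 without HepG2 control 1, 2 and 3 and 117, 3 and 35 without Ls174 control 1, 2 and 3. In LGALS4, a gut galectin on chromosome 19, the region chr19:39292114-39292550 (GRCh37, minus strand) held 13.2% ± 10.4 of the counts in HepG2 and 88.1% ± 5.26 in Ls174 (SD, n = 3, adjusted p = 0.0093), and chr19:39293463-39293659 held the rest, on 33 HepG2 counts in all. In SAMD5 the distal region chr6:148058585-148058880 held 98.4% ± 0.514 in HepG2 and 25.8% ± 30.4 in Ls174 (adjusted p = 0.0044), where Ls174 control 1 stood at 60.9% and the other libraries at 9.43% and 7.14%, and that region is counted under RP11-307P5.1 as well. In ERCC1, a DNA repair gene, a region at chr19:45922356-45922455 held 0 of 240 counts in HepG2, which allows a share of up to 1.25%, and 19.2% ± 1.18 in Ls174 (SD, n = 3, adjusted p = 0.018). Another of its regions, the one that led in Ls174, overlaps a region counted for CD3EAP on the opposite strand. In ADAT1, a tRNA editing enzyme, chr16:75630682-75631280 held 35.9% ± 26.8 in HepG2 and 91.8% ± 8.64 in Ls174 (adjusted p = 0.021), with 5.22% in HepG2 control 2. Both tested regions of ADAT1 overlap an annotated long non-coding gene on the same strand, whose reads may be counted there. The other 4 genes named by the rule, ELP5, IFITM2, ANKHD1 and ATG9A, had a region that overlaps one counted for CLDN7, IFITM1, EIF4EBP3 and ABCB6, so that reads of those neighbours may be counted there, which was not tested. CLDN7 lies on the opposite strand from ELP5.

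The HME libraries of the same lines, which share no library with the comparison, gave the same order for most genes. In them 6326 of 11914 genes (53.1%) were called between the lines. Of the 2798 genes called in the control libraries, 2540 were tested there, 2469 had the same direction, 2261 (89.0%) were called in it and 14 were called in the opposite one. AHSG had a log2 fold change of 9.59 there, HNF4A of 2.10, GSTP1 of -2.59, EPHB3 of -7.44 and SMOC2 of -10.94. S100A2, higher in Ls174 here (log2 fold change -2.22, SE 0.70, adjusted p = 0.048), was one of those 14 and was picked after their values were seen, with a log2 fold change of 0.73 there, and the difference between the 2 contrasts was not tested. Its reads were few, 1 to 51 counts a control library, and its call here was lost without any 1 library other than Ls174 control 1 (adjusted p 0.066 to 0.15). The treated libraries were uneven too. The 15 hepatocyte markers summed to 146, 47.5 and 65.2 CPM in the Ls174 HME libraries, with 2, 10 and 10 of them at 0. In the HepG2 HME libraries fibroblast markers summed to 104, 1040 and 122 CPM, and S100 proteins and annexins to 2126, 4344 and 1936 CPM. The source of these differences was not tested. The treated libraries measure the line and its response to HME together.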

How the data were processed

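RNA was extracted with Trizol from biological triplicates, per the study's methods, and 3′ libraries (QuantSeq) were sequenced on an Ion Proton instrument. The authors aligned the reads with Hisat2 to hg19 (GRCh37) and counted them with metaseqR2, and the deposited files hold raw counts, 1 value per 3′ region. The submitters' processing notes also name Bowtie2 and Trimmomatic. Versions, and how strand and reads with several positions were handled, are not given in the sources used here.

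Each gene's count is the sum over its 3′ regions, and a region listed under several genes enters each of them. Genes were filtered with filterByExpr, scaled by TMM and tested with edgeR's quasi-likelihood F test in the 6 control libraries (R 4.3.3, edgeR 4.0.16, limma 3.58.1, DESeq2 1.42.0, data.table (1.17.8), Python 3.11.15, numpy 2.4.6, matplotlib 3.10.9), after the fit had been tested on simulated data. P-values were adjusted by Benjamini-Hochberg over all genes tested. The study tested no contrast between the lines. CPM and their SD are per library over 3 libraries, and library totals of 1874122 to 3656662 counts set the floor of 3 counts at 0.788 to 2.04 CPM in a single library. P-values measure the spread between cultures of 1 line each. The 3′ regions were compared with diffSpliceDGE, keeping the largest of overlapping regions of a gene. Promoter sequences came from RefSeq (GRCh38.p14) by symbol.

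Genes were named as members of the lists, as the 15 per direction with the largest fitted fold at 20 CPM or more in every library of the higher line, the 10 per direction with the highest mean among those beyond a log2 fold change of 2, the 5 non-coding genes per direction with the largest fold, and the 8 genes of lowest adjusted p whose leading 3′ region differed, all without overlap between lines except the last. The lists, their members and this comparison were chosen with earlier results of these data known. Genes not found under their symbol were not analysed here. The values of some genes are not reported here. Alternatives were other scalings, filters, tests, thresholds, a replicate block, a fit of all 12 libraries and fits without single libraries.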

Additional observations from a re-analysis of the deposited data

Results flagged for a closer look

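ASL, argininosuccinate lyase of the urea cycle, stood in opposite order in the control and the HME libraries. On library totals, without TMM scaling, it was at 28.4, 40.0 and 29.5 CPM in the HepG2 controls and at 8.09, 13.9 and 17.6 CPM in the Ls174 controls. In the HME libraries it was at 12.6, 10.2 and 15.6 CPM in HepG2 and at 18.97, 16.5 and 17.1 CPM in Ls174, so that every HepG2 library lay below every Ls174 library. The fitted log2 fold change was 1.55 in the controls and -0.19 with HME (edgeR, adjusted p = 0.55), and the difference between the contrasts was not tested. HepG2 HME libraries held 28 to 36 counts of the gene.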

How the results depend on the processing

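The direction of every called gene named here, 150 of 168 named genes tested, was the same under each alternative that tested it. Of these 150 genes 139 were also called without each library in turn, 11 lost the call without at least 1 library, and 4 uncalled genes gained one. Of 83 called named genes with a fitted fold 44 moved by over 1.5 times without 1 library, 30 of them without Ls174 control 3. The uncalled EEF1A1 turned to -0.060 with upper-quartile scaling and -0.12 with library size only, and ranged from -0.22 to 0.35 without 1 library. The uncalled RNF43 turned to -0.025 and -0.17 with the same scalings, to -0.42 without the 2 libraries that lay apart, and ranged from -0.18 to 0.34 without 1 library. With library size only, the median of all genes moved from 0.04 to -0.17 and the share of calls higher in HepG2 from 60.3% to 51.8%.

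Calls over all genes numbered 2134 to 3367 when 1 library was left out (1386 to 1975 higher in HepG2, 748 to 1392 higher in Ls174), and 69.4% to 90.6% of the 2798 genes were called again in the same direction. DESeq2 called 3462 genes and limma voom 2834. The fit of all 12 libraries called 4631 (2553 and 2078), and that without the 2 libraries that lay apart 5615 (3078 and 2537). An unadjusted p under 0.05 with the same fold limit gave 1836 genes higher in Ls174.

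Lists are counted here over all members that pass each setting's own filter. Without the 2 libraries that lay apart, the counts higher in Ls174 were 8 S100 proteins and annexins, 21 junction genes, 13 proliferation and 3 reference genes, and those higher in HepG2 7 antigen presentation genes and 4 genes of the qPCR list. With every gene that had at least 1 count, the list of hepatocyte metabolism had 23, the junction genes 16, the qPCR list 4 and the reference genes 0. The fit of all 12 libraries gave 9 proliferation and 3 reference genes in Ls174 and 4 of the qPCR list. Proliferation genes in Ls174 numbered 8 with library size only, 9 with DESeq2 and 9 by the unadjusted p, and reference genes 2, 2 and 3, while DESeq2's size factors in edgeR and voom gave 0 reference genes.

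Leaving out 1 library gave 3 to 6 for S100 proteins and annexins in Ls174, 3 to 5 for antigen presentation genes in HepG2, 1 to 4 for the qPCR list in HepG2, 2 to 6 for proliferation genes in Ls174 and 0 to 1 for reference genes in Ls174. The ratio of distances between and within lines was 6.001 to 7.17 without 1 library and 2.19 over all tested genes. The count of genes with a different use of 3′ regions, 54, was 3 to 117 without 1 library, 106 with a minimum of 10 counts, 16 by the Simes test and 146 without the 2 libraries that lay apart.

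The replicate numbers did not pair the libraries: deviations of same-numbered libraries correlated at -0.40, -0.34 and 0.12. With the replicate number as a block 1890 genes were called, 672 of them higher in Ls174, of which 1887 (67.4% of the 2798) were shared in direction. Under the block, 3 S100 proteins and annexins, 1 proliferation gene and 0 reference genes were called in Ls174, 1 gene of the qPCR list in HepG2, and 1 gene for its 3′ regions.

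Depth limits what can be said of a gene at 0: in a line, 3 counts correspond to 0.334 CPM in Ls174 and 0.399 CPM in HepG2.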
